A study of Homo sapiens with 6 samples.

Results

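The comparison covered 454 cell barcodes that 2 Drop-seq libraries had in common, the library labelled 25 PCR cycles and the library labelled 30 PCR cycles. A barcode was a member when it was among the 1000 barcodes of largest count sum at 25 cycles and among the 500 of largest count sum at 30 cycles, the cell numbers of the labels. The 454 members made up 45.4% of the 25-cycle cells (42.3 to 48.5% by the exact Clopper-Pearson method) and 90.8% of the 30-cycle cells (87.9 to 93.2%). All 5 matrices of the series stored 407779 barcodes. By the rule, no more than 500 of the 1000 25-cycle cells could be members, a limit that the interval of the 25-cycle share ignores.

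Both libraries came from a mixture of a human and a mouse cell line, labelled as the myeloma lines JJN3 and 5TGMG1 (5TGM1 in the study's text), with no treatment other than the number of PCR cycles. Cells were captured on barcoded beads with the Nadia system, and nanopore libraries were made with kit LSK-109 at 25 cycles and kit LSK-114 at 30 cycles. Only the 25-cycle label names a PromethION run. The cycle number, the kit, the run and any difference in counting were tied together, so their shares in a difference cannot be told apart. The labels do not say that both libraries came from 1 capture. With 1 library a side there was no replicate check and no test between the libraries, and the 95% intervals below reflect counting error and nothing else.

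In Drop-seq each bead carries a barcode that marks the cell, and each captured RNA molecule receives a random unique molecular identifier (UMI). PCR then copies the tagged cDNA, and reads that share barcode, transcript and UMI are counted as 1 molecule. A copying or reading error in the UMI can turn copies of 1 molecule into several apparent ones, and more copying gives more chances of such errors. The same barcode read after different amounts of PCR therefore offers a view of how stable its count is. A human and mouse mixture adds a check of the barcode itself, since a droplet with 1 cell should give transcripts of 1 species.

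The stored barcodes had 10 bases. Those of the largest members are shown because a few barcodes held a large part of the counts and carried the largest single differences:
mouse, largest in both libraries: gaagtaatca
mouse, second largest at 30 cycles: aggtctaagc
human, largest at 30 cycles: gaacactacg
human, largest at 25 cycles: cgaggcacgg
mixed in both libraries: caggcggagc
Other members lay 1 mismatch from the first of these, with the differing base in capitals:
mouse in both libraries: Aaagtaatca
mouse in both libraries: gaagtaaCca

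Each matrix lists barcode and transcript combinations with their number of UMIs, a whole number, and such a combination is called an entry here. The 25-cycle matrix held 2311090 counts over 323970 barcodes with a smallest value of 1. The 30-cycle matrix held 528502 counts over 20705 barcodes with a smallest value of 3. Entries below 3 made up 93.7% of the 25-cycle entries and 72.6% of its counts. They were set to missing, and unless said otherwise all values below are counts of 3 or more.

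Sharing followed the count rank. Members were picked by rank in these same libraries, so a lower share toward the last ranks was in part set by the rule. All 100 barcodes of largest count in either library were cells in the other. At 25 cycles the shared part dropped to 51% at ranks 401 to 500 and to 10% at ranks 901 to 1000. At 30 cycles it was still 75% at ranks 401 to 500. The last rank had a count sum of 141 at 25 cycles, where 10 barcodes were tied, and of 114 at 30 cycles, where 8 were tied. The 46 cells found only at 30 cycles were all stored at 25 cycles, with a median sum of 106 there against the limit of 141. Of the 546 cells found only at 25 cycles, 475 were stored at 30 cycles, with a median sum of 34.5 over all 546. With the 10X cells of the series at 30 and 35 cycles, the 25-cycle cells shared 4 barcodes each and the 30-cycle cells 0.

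**Figure D1:**
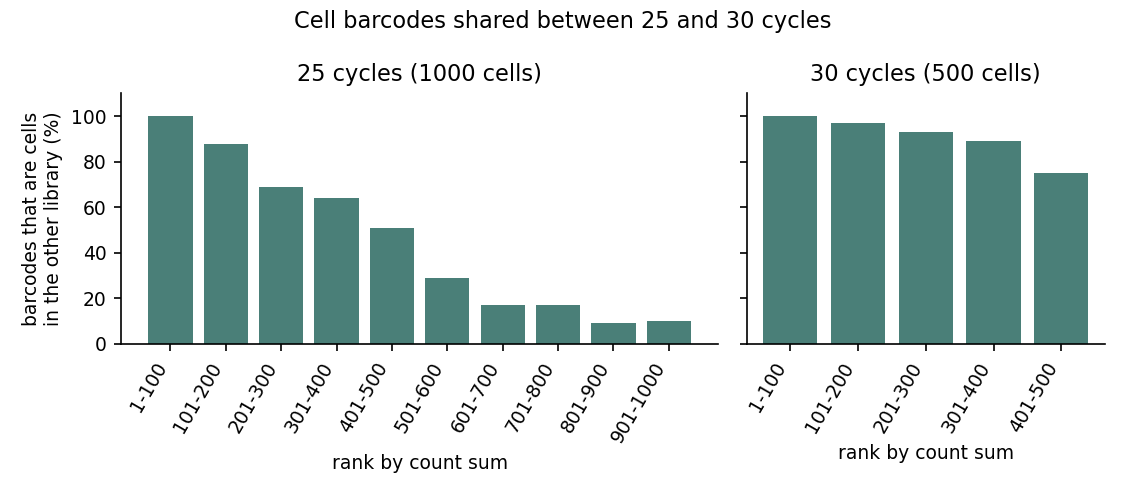
Share of cell barcodes that were also cells in the other library (y axis, percent), by class of 100 ranks of count sum (x axis), for the 25-cycle library on the left and the 30-cycle library on the right. Bars stand at 100% for the first 100 ranks of both libraries and end at 10% and 75%.

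The members held fewer counts at 30 cycles than at 25. At 25 cycles their 39718 entries summed to 300338 counts (299265 to 301414, exact Poisson), and at 30 cycles their 45258 entries summed to 247632 counts (246658 to 248609). The ratio of the totals, 30 over 25 cycles, was 0.825 (exact conditional interval 0.820 to 0.829), with 0.864 for human and 0.809 for mouse transcripts. Among values of 3 or more, the 30-cycle library thus had more entries with fewer counts in each. With the values of 1 and 2 kept, the 25-cycle total was 419452 and the ratio was 0.590. Both orders then reversed, with 138869 entries and a mean of 3.02 counts at 25 cycles, against a mean of 5.47 at 30 cycles. Read numbers were not used here, so the ratio also holds any difference in sequencing depth. The same barcodes held 345738 counts at 35 cycles, where values below 3 were likewise missing.

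Per barcode the pattern was less one-sided. The median count was 317 at 25 cycles (14 to 28782 over the members) and 270.5 at 30 cycles (114 to 15086). The median of the ratios within barcodes was 0.885, with quartiles of 0.659 and 1.25, and 175 of 454 barcodes (38.5%) were higher at 30 cycles. Human barcodes had a median ratio of 0.865 (155 barcodes human in both libraries), mouse barcodes 0.889 (257) and mixed barcodes 0.962 (24). Each of these medians lay between the quartiles of the other two. Ordered by the geometric mean of both counts, the lowest 114 barcodes had a median ratio of 1.24, and the highest 114 had 0.723. The members had to hold 114 counts at 30 cycles after the value of 3 was applied, while at 25 cycles the limit of 141 also counted values of 1 and 2, so a member could hold very few counts at 25 cycles only. With those values kept, the ratio was 0.669 in the lowest 114 and 0.558 in the highest 114.

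The barcode gaagtaatca held 28782 counts at 25 cycles and 15086 at 30 cycles, which was 9.58% and 6.09% of all members' counts. Its neighbour Aaagtaatca held 2119 and 1519 counts, and gaagtaaCca held 373 and 114. The barcode aggtctaagc was close to equal, at 6939 and 7389 counts. The human barcodes gaacactacg and cgaggcacgg dropped from 4019 to 3314 and from 4934 to 3142 counts. Single barcodes thus moved by different factors at similar depth. Without gaagtaatca the ratio of the totals was 0.856.

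Single ratios ranged widely. The barcode cagacaagga had 21 counts at 25 cycles, or 173 with values of 1 and 2, and 1228 at 30 cycles, a ratio of 58.5. The lowest ratio was 0.247, in gctccggtgt, with 713 counts at 25 cycles and 176 at 30 cycles. Both were mouse barcodes in both libraries. At 35 cycles the first of these held 1707 counts and the second 270.

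**Figure D2:**
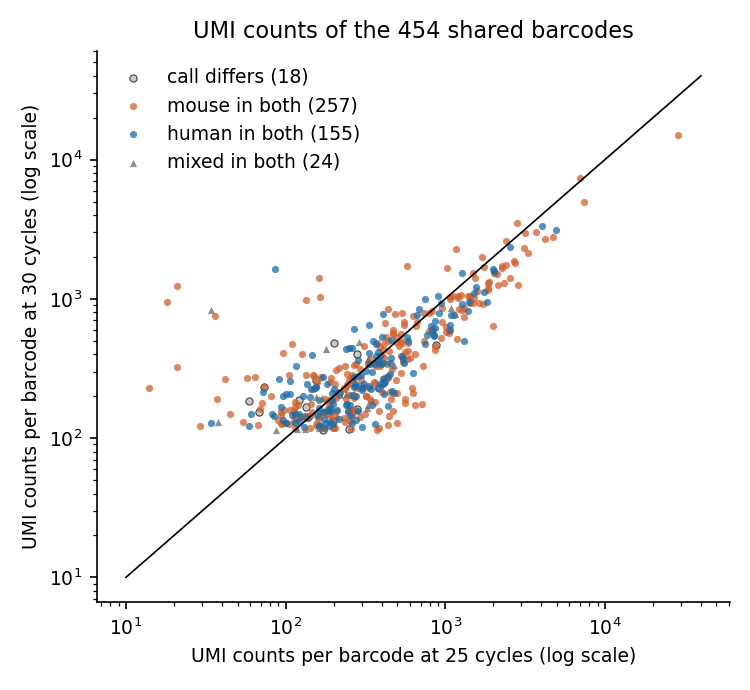
UMI counts of each of the 454 shared barcodes at 25 cycles (x axis) and at 30 cycles (y axis), both on log scales, coloured by species call; the line marks equal counts. Most points lie near the line, 175 above it, and the barcode with 28782 and 15086 counts stands alone at the upper right.

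The species of the barcodes was stable between the libraries. Species calls asked for 90% or more of a barcode's counts on transcripts of that species. Of the 412 barcodes with a single species in both libraries, 0 switched between human and mouse, which allows a share of up to 0.728%. At 25 cycles 31 of 454 barcodes were mixed (6.83%, with exact limits of 4.69 and 9.55%), at 30 cycles 35 were (7.71%, 5.43 to 10.6%), and 24 were mixed in both. The same barcodes were called in both libraries, so these intervals do not compare the libraries. Of barcodes mixed at 25 cycles only, 3 were human and 4 mouse at 30 cycles. Of those mixed at 30 cycles only, 6 were human and 5 mouse at 25 cycles. The 24 mixed in both had a median human share of 55.9% at 25 cycles and 50.1% at 30 cycles, far from the 90% limit. With values of 1 and 2 kept, 61 barcodes (13.4%) were mixed at 25 cycles. The human share of the members' counts was 28.0% at 25 cycles (27.8 to 28.2%) and 29.4% at 30 cycles (29.2 to 29.5%). Without gaagtaatca these shares were 30.8% and 31.1%. The stored barcodes included 64 pairs 1 mismatch apart, over 91 barcodes, and 56 pairs had the same species calls.

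The labelled human line was checked against cell type markers. Plasma cells, from which myeloma arises, express immunoglobulins and the secretory regulator XBP1, while T cells express the CD3 complex and T cell receptor chains. In the 155 human barcodes 20 of 22 plasma cell markers were at 0 in both libraries, among them SDC1, XBP1, IRF4, PRDM1, JCHAIN and every immunoglobulin gene listed. Their sum was 6 counts at 25 cycles and 10 at 30 cycles, from MZB1 and CD79A. Of 22 T cell markers 14 were at 0, CD3E and CD247 included, and the sum was 222 and 195 counts. CD3G had 84 counts in 2 human barcodes at 25 cycles and 53 in 4 at 30 cycles, and TRBC1 65 in 8 and 45 in 6. CD1E had 23 in 2 and 51 in 5, and CD3D 15 in 4 and 9 in 2. These counts thus came from few of the 155 barcodes. CD7 also had 27 and 23 counts in mouse barcodes. In both libraries the T cell list thus held more counts than the plasma cell list. Only 2707 human genes were listed in the members, and the share of other genes at 0 was not set beside these lists. Low entries were missing, so a marker at 0 need not be absent from the cells. The markers therefore do not decide the origin of the human line, and the label JJN3 is used here without further naming. The study's text also names Jurkat, a human T cell leukaemia line, in its account of cell culture and of the 10X mixture, and which human line was captured here is not settled by the sources used. Mouse transcripts had no gene names here, so the mouse label was not checked.

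Entry by entry, most of the 30-cycle data had been seen at 25 cycles. Of the 45258 entries at 30 cycles, 61.4% (60.9 to 61.8%) were at 3 or more at 25 cycles, a further 31.4% were stored there at 1 or 2, and 7.17% were not stored. In the other direction 69.9% (69.5 to 70.4%) of the 39718 entries at 25 cycles were stored at 30. For scale, 83.9% of the 30-cycle entries were stored at 35 cycles, a library with the same smallest value and kit but more entries, 58877. In the other direction 64.5% of those 58877 entries were stored at 30 cycles. Presence went up with the value. Of entries at 3 or 4 counts at 25 cycles 54.1% were stored at 30 cycles, of entries at 10 to 19 counts 90.3%, and all 195 entries at 50 or more. In the 27782 entries stored in both, the median value was 6 counts at 25 cycles and 5 at 30, the median ratio was 0.846, and 53.4% were lower at 30 cycles.

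The libraries differed most in their largest entries. At 25 cycles the 99th percentile of an entry was 37 counts and the largest was 515. At 30 cycles these were 18 and 53, and at 35 cycles 20 and 59. Entries of 50 or more numbered 195 over 32 barcodes at 25 cycles and 3 at 30 cycles. All 195 were lower at 30 cycles, with a median of 67 at 25 cycles and 23 at 30 cycles, and a median ratio of 0.315. Since these entries were picked for being large at 25 cycles, they were also read by their value at 35 cycles, which neither side used. Of entries at 30 or more at 35 cycles, 103 were stored in all 3 libraries, with medians of 63 at 25 cycles and 28 at 30 cycles and a median ratio of 0.414. For entries at 3 to 4, 5 to 9 and 10 to 19 counts at 35 cycles the median ratios were 0.833, 0.857 and 0.833. Without gaagtaatca the ratio for the large entries was 0.532 over 68 entries, 11 of which were not lower at 30 cycles.

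The widest single differences were in the barcode gaagtaatca. Its entry for ENSMUST00000082421 had 515 counts at 25 cycles, 46 at 30 and 59 at 35. Its entry for ENSMUST00000103410 had 460, 43 and 49 counts. Its entries for ENSMUST00000082409 and ENSMUST00000190277 both had 428 and 53 counts, with 45 and 46 at 35 cycles. In aggtctaagc ENSMUST00000082421 had 200, 44 and 52 counts. The total of that barcode was 6939 and 7389 counts, or 8718 at 25 cycles with values of 1 and 2 kept. Mouse entries reached 515 and 53 counts in the 2 libraries and human entries 56 and 30.

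**Figure D3:**
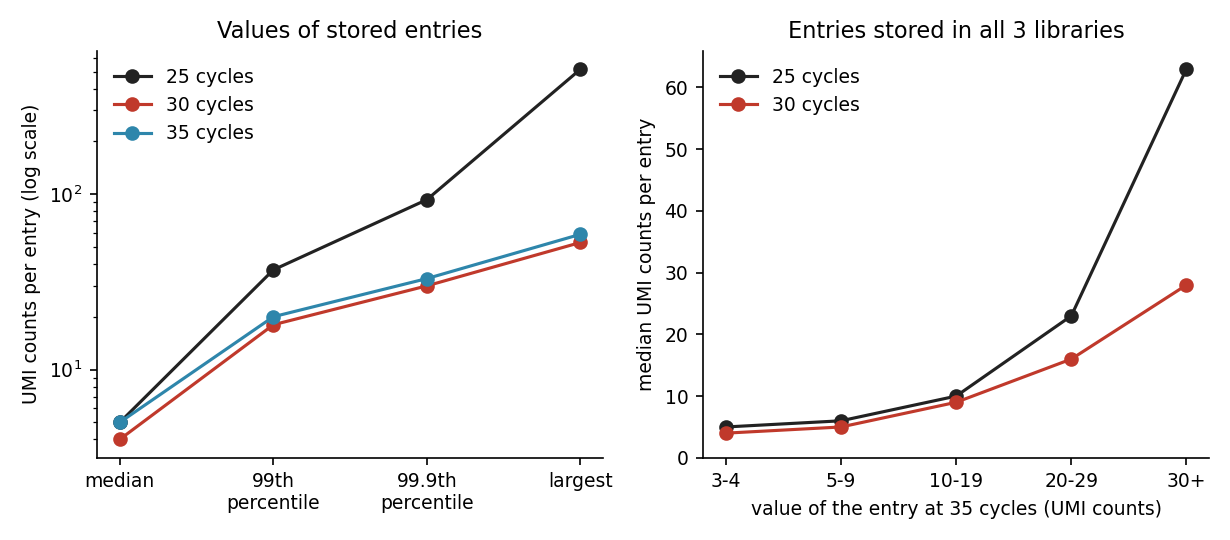
Left, the median, 99th and 99.9th percentile and largest value of an entry (UMI counts, log scale) in the members at 25, 30 and 35 cycles. Right, the median value at 25 and at 30 cycles (UMI counts) of entries stored in all 3 libraries, by their value at 35 cycles; the lines lie within 1 count of each other up to 19 counts and stand at 63 and 28 in the top class.

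The number of transcripts seen per barcode was compared at equal depth. In 257 barcodes with at least 200 counts in both libraries, thinned to 200 counts, the median was 74 transcripts at 25 cycles and 85 at 30 cycles, a ratio of 1.15, and 199 barcodes (77.4%) had more at 30 cycles. The other 197 barcodes were too shallow. Before thinning the same 257 barcodes had medians of 85 and 95 transcripts. Human barcodes gave 66 and 73 transcripts over 90 barcodes, and mouse barcodes 81 and 94 over 153. The direction depended on the values kept. In an alternative added after seeing the data, with values of 1 and 2 kept at 25 cycles, the ratio was 0.611 over 294 barcodes, so that the 25-cycle library then had more transcripts at equal depth.

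The transcript profiles of the members were close. Values were scaled within each species to CPM, a transcript's share of that species' counts on a common scale, and a transcript was compared when it had at least 100 counts over both libraries. A 2-fold difference was used as a rule of size. Of 7437 human transcripts listed, 243 were compared, and 6 lay past 2-fold (2.47%), 1 of them higher at 30 cycles (0.412%) and 5 lower (2.06%). The median log2 ratio was -0.15 with an SD of 0.41 over transcripts. Of 9897 mouse transcripts listed, 530 were compared, and 15 lay past 2-fold (2.83%), 12 higher (2.26%) and 3 lower (0.566%), with a median of -0.00 and an SD of 0.43. With values of 1 and 2 kept at 25 cycles, the medians turned to 0.07 and 0.10. Of 290 human transcripts then compared, 1 was higher and 1 lower, and of 656 mouse transcripts 5 and 5. Without gaagtaatca 7 of 458 mouse transcripts were higher and 6 lower. The counts behind the transcripts compared were 35.3% of the human and 58.3% of the mouse counts.

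Between 30 and 35 cycles no transcript passed 2-fold. Over the 417 barcodes that were cells in all 3 Drop-seq libraries, 0 of 247 human (0%) and 0 of 613 mouse transcripts (0%) lay past 2-fold at 35 against 30 cycles, with SDs of 0.25 and 0.24. At 30 against 25 cycles the same barcodes had 6 of 235 (2.55%) and 15 of 523 (2.87%) past 2-fold, with SDs of 0.41 and 0.42. The 30-cycle library was shared by both comparisons. The 30- and 35-cycle libraries also had the kit and the smallest value in common, and neither was shared with the 25-cycle library.

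**Figure D4:**
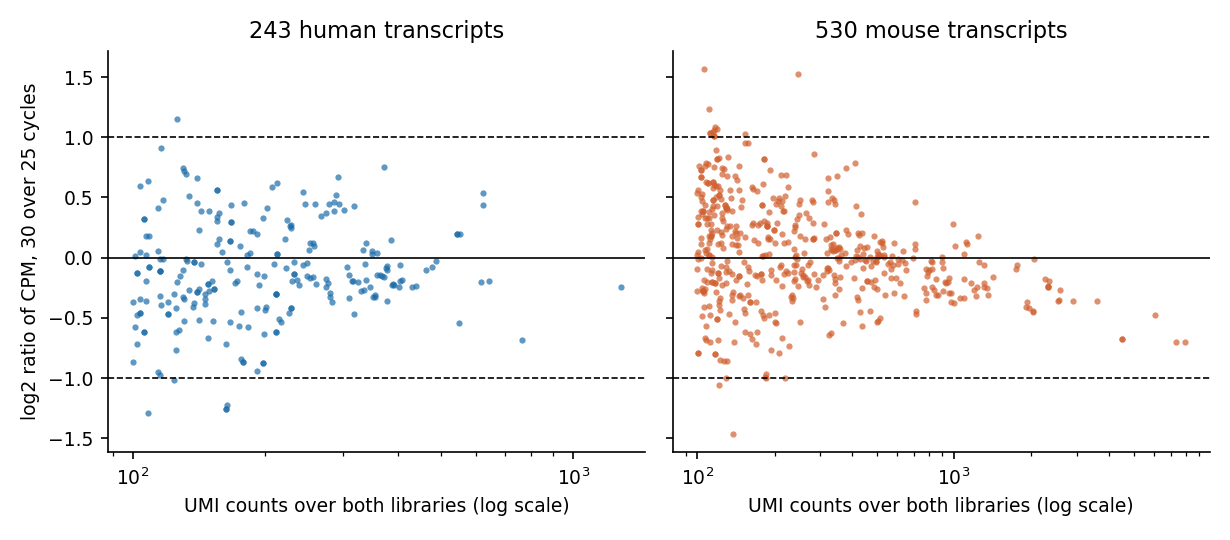
Log2 ratio of CPM at 30 over 25 cycles (y axis) against UMI counts over both libraries (x axis, log scale), for 243 human transcripts on the left and 530 mouse transcripts on the right; dashed lines mark 2-fold. Among mouse transcripts 12 lie above and 3 below the dashed lines, and the most abundant ones sit below 0.

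The only human transcript past 2-fold upward was ENST00000490569 of EEF1A1, the elongation factor that brings tRNA to the ribosome, a retained-intron form at chr6:73517515-73521373 on hg38. It had 43 counts in 10 barcodes at 25 cycles, 83 counts in 20 barcodes at 30 cycles and 112 counts at 35 cycles, a log2 ratio of 1.15 (interval 0.61 to 1.73). ENST00000377811 of NDUFB11, a subunit of respiratory complex I at chrX:47142216-47144702, had 54, 77 and 104 counts and 0.72 (0.20 to 1.25). A pair of transcripts among the highest had no name in the annotation used. They were ENST00000545075, with 151, 220 and 314 counts and a log2 ratio of 0.75, and ENST00000543500, with 53, 77 and 144 counts and also 0.75.

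At the lower end stood H3-3B, which encodes the replacement histone H3.3. Its transcript ENST00000254810 at chr17:75776434-75779779 had 80 counts in 5 barcodes at 25 cycles, 28 in 4 barcodes at 30 and 33 at 35, a log2 ratio of -1.29 (-1.98 to -0.67). RPL18, a protein of the large ribosomal subunit on chromosome 19, gave 3 of the 5 lowest. ENST00000549370 and ENST00000549920 had identical entries, with 120, 43 and 62 counts and a log2 ratio of -1.26 (-1.81 to -0.76). ENST00000084795 had 120, 44 and 62 counts in the same 11 and 9 barcodes. These are thus 1 difference seen under 3 names. ENST00000497825 of RPL12, at chr9:127447674-127451405, had 87, 37 and 76 counts and a log2 ratio of -1.01 (-1.62 to -0.45).

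Shared values among transcripts were common. Of the 773 transcripts compared in both species, 82 (10.6%) had the same value in every barcode of both libraries as at least 1 other, in 40 sets. Counts of transcripts past 2-fold are therefore larger than the number of separate signals.

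The most abundant human transcripts moved in both directions. MT-CO1, a mitochondrially encoded subunit of cytochrome c oxidase (ENST00000361624, chrM:5904-7445), had 742 counts at 25 cycles, 541 at 30 and 735 at 35, a log2 ratio of -0.25 (-0.41 to -0.08). MT-CYB, cytochrome b of complex III (ENST00000361789, chrM:14747-15887), had 497, 267 and 432 counts and -0.68 (-0.91 to -0.47). Both lay below the median of the human transcripts, -0.15. ENST00000600213 and ENST00000536684, which had no name in the annotation used, were higher, with 288 and 337 counts (0.44, 0.21 to 0.67) and 277 and 347 counts (0.53, 0.30 to 0.77).

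The 3 most abundant mouse transcripts were all lower at 30 cycles. ENSMUST00000103410 had 5304 counts at 25 cycles and 2644 at 30, a log2 ratio of -0.70 (-0.77 to -0.63). ENSMUST00000103328 had 4899 and 2436 counts and also -0.70, and ENSMUST00000082421 had 3817 and 2217 counts and -0.48 (-0.55 to -0.40). Without gaagtaatca these were -0.67, -0.67 and -0.38, so the direction did not rest on that barcode alone. Members close to it in sequence were kept in these values. The median log2 ratio of mouse transcripts went down with abundance, from 0.17 at 100 to under 200 counts over 256 transcripts to -0.10 at 500 to under 1000 counts over 66 and -0.36 at 2000 counts or more over 18. The human transcripts showed no such order, with -0.19 at 100 to under 200 counts over 132 transcripts, -0.14 at 200 to under 500 over 101 and 0.19 at 500 to under 1000 over 9. Few human transcripts were that abundant.

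ENSMUST00000034966, which the study's text names as Rpl4, had 495 counts in 42 barcodes at 25 cycles, 402 in 60 barcodes at 30 and 487 at 35. Its log2 ratio was 0.01 (-0.19 to 0.20), so it held its share of the mouse counts. The highest mouse ratios were 1.57 in ENSMUST00000126529 (31 and 75 counts) and 1.53 in ENSMUST00000223428 (74 and 173 counts). The lowest were -1.47 in ENSMUST00000026222 (107 and 31 counts) and -1.05 in ENSMUST00000135680 (88 and 34 counts). ENST00000330494 of CHD3, a chromatin remodeller, had no entry of 3 or more at 25 cycles and 3 counts at 30, under the minimum. ENST00000532223 was not stored at 3 or more counts in the members.

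Length and base composition gave the human log2 ratios little order. The median was -0.10 for transcripts of 500 to under 1000 bases (111 transcripts), -0.22 from 1000 to under 1500 (48), -0.23 from 2000 to under 3000 (26) and 0.30 from 3000 to under 5000 (11). Across 223 transcripts with an annotated length, Spearman's rho was -0.18 with length and 0.01 with GC content, over transcripts that shared libraries and depth and are not replicates. Retained-intron transcripts had a median of -0.08 (12), nonsense-mediated decay transcripts -0.16 (17) and protein-coding ones -0.15 (179).

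Summed by gene, the libraries looked further apart. Of 2707 human genes listed, 278 were compared, and 46 lay past 2-fold (16.5%), 14 higher at 30 cycles (5.04%) and 32 lower (11.5%), with a median of -0.23 and an SD of 0.73. The share past 2-fold was 43.6% of the 39 genes seen in at most 2 barcodes, 25% of the 72 seen in 3 or 4, 10.8% of the 74 seen in 5 to 9, 4.92% of the 61 seen in 10 to 19, and 0 of the 32 seen in 20 or more. Of the 46 genes, 35 were seen in under 5 barcodes. A gene's sum also adds the values of all its transcripts in a barcode, a median of 5 listed transcripts in these 46. Over all 278 genes compared the median was close to that, at 4. When each gene was counted once per barcode, by its largest transcript, 94 genes reached 100 counts, and 2 of them (2.13%) lay past 2-fold, both lower at 30 cycles, H3-3B and RPL18, with a median over the 94 of -0.13. The sign was the same in both ways of counting for 91 of these 94 genes. Since fewer genes reach the minimum this way, the smaller number past 2-fold does not show that summing made the differences. With values of 1 and 2 kept, 22 of 330 genes were higher and 17 lower by sums.

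**Figure D5:**
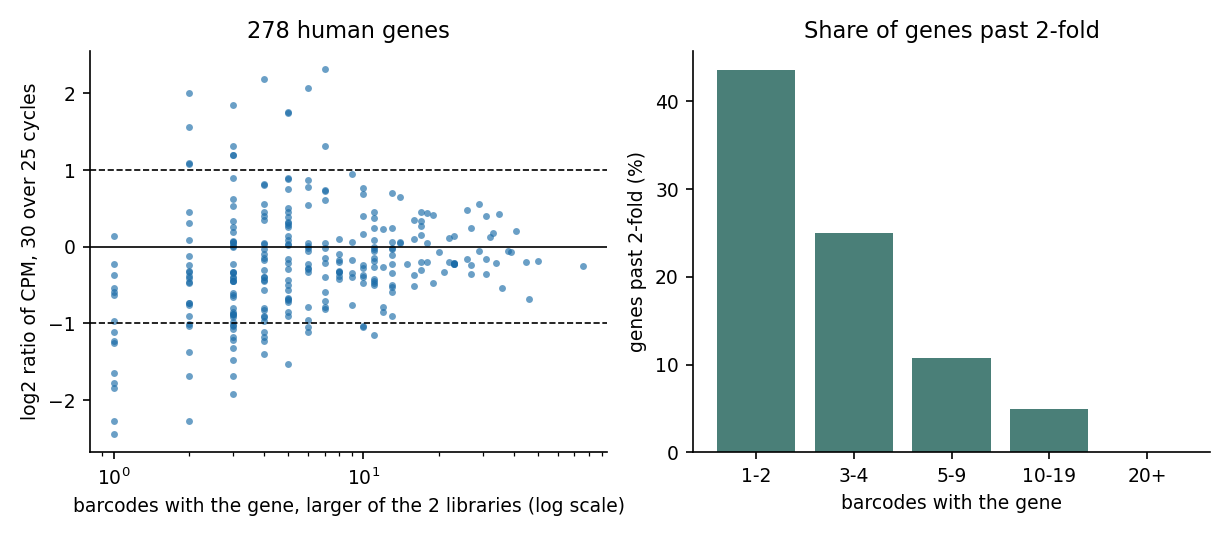
Left, log2 ratio of CPM at 30 over 25 cycles for 278 human genes (y axis) against the number of barcodes with the gene, the larger of both libraries (x axis, log scale); dashed lines mark 2-fold. Right, the share of genes past 2-fold (percent) by that number of barcodes, which goes from 43.6% in 1 or 2 barcodes to 0 in 20 or more.

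The genes at the ends were seen in few barcodes. Their intervals also took the summed transcripts of a barcode as independent counts, and so were too narrow. ENO1, the glycolytic enzyme enolase, had 24 counts in 2 barcodes at 25 cycles and 105 in 7 barcodes at 30, a log2 ratio of 2.32 (1.69 to 3.04), and 80 counts at 35. HNRNPU, a nuclear RNA-binding protein, had 36 counts in 2 barcodes and 132 in 6, a ratio of 2.07, and 72 of the 132 came from 1 barcode. SON, a splicing cofactor, had 28 counts in 1 barcode and 88 in 3, a ratio of 1.85. RPAIN (23 and 92 counts, 2.19) and YY1AP1 (31 and 109 counts, 2.01) completed the 5 highest. Counted by largest transcript, ENO1 (8 and 36 counts, 2.32), HNRNPU (8 and 40, 2.47) and SON (7 and 22, 1.80) kept log2 ratios near or above those of their sums. RPAIN (11 and 22, 1.18) and YY1AP1 (8 and 11, 0.65) had smaller ones.

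NOP56, a core protein of box C/D small nucleolar RNPs, had the lowest ratio, with 97 counts at 25 cycles and 15 at 30 (-2.44, -3.37 to -1.69), all from 1 barcode and spread over 8 transcripts. HMCES, which binds abasic DNA, had 92 and 16 counts in 1 barcode (-2.28). RNPS1, an exon junction protein, had 155 and 37 counts in 1 barcode (-1.84), of which its largest transcript held 37 and 9. POLM, a DNA polymerase of end joining, had 103 and 18 counts (-2.27), and NAA10, an N-terminal acetyltransferase, had 115 and 26 (-1.91). By largest transcript the log2 ratios of these 5 genes ran from -2.40 in NOP56 to -1.77 in RNPS1, all under 100 counts. All 5 of the lowest genes had their 30-cycle counts in 1 barcode each.

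Gene groups were read against all 278 compared human genes, with their median of -0.23 and their shares past 2-fold of 5.04% higher and 11.5% lower, and none of the groups' counts is a test. Proteins of the large ribosomal subunit had a median of -0.20 over 43 genes, 1 of them (2.33%) higher past 2-fold and 2 (4.65%) lower. RPL38 was the higher one (53 and 114 counts, 1.31), and RPL18 (377 and 147, -1.15) and RPL35A (204 and 86, -1.03) the lower ones. RPL13 (846 and 702, -0.06), RPL41 (790 and 652, -0.07) and RPL13A (794 and 586, -0.23) had the most counts. Proteins of the small subunit had a median of -0.02 over 30 genes, with only RPS27A past 2-fold (153 and 64, -1.04). RPS19 had 965 and 718 counts (-0.22), RPS14 910 and 671 (-0.23) and RPS3A 769 and 595 (-0.16). The large subunit list held 15.3% of the human counts at 25 cycles and 14.2% at 30 cycles, and the small subunit list 11.6% and 11.1%.

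Genes encoded in mitochondrial DNA had a median of -0.25 over 9 genes, with none past 2-fold, while both mitochondrial ribosomal RNA genes were not stored. MT-ND4, a complex I subunit, had 352 and 265 counts (-0.20). Nuclear genes of oxidative phosphorylation had -0.32 over 14 genes, from -1.05 to 0.78, 1 of them (7.14%) lower past 2-fold, UQCR11 of complex III (87 and 36 counts, -1.05). COX6C had 157 and 120 counts (-0.18), ATP5F1A 162 and 106 (-0.40) and COX7A2 171 and 90 (-0.71). Glycolytic enzymes had 0.00 over 4 genes, from -0.57 to 2.32. GAPDH had 432 and 265 counts (-0.49), LDHB 160 and 93 (-0.57) and TPI1 75 and 92 (0.50), with ENO1 as the 1 past 2-fold.

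Translation factors had -0.33 over 7 genes, in which EEF1A1 had 566 and 717 counts (0.55), EIF1 282 and 171 (-0.51) and TPT1 257 and 166 (-0.42). BTF3, of the nascent polypeptide complex, was lower past 2-fold (121 and 48, -1.11). Heat shock chaperones had -0.43 over 7 genes, all of them below 0 but 2 above the median of all genes, with HSP90AB1 at 424 and 319 counts (-0.20), HSP90AA1 at 279 and 171 (-0.49) and HSPD1 at 229 and 151 (-0.39). CCT7 (128 and 38, -1.53) and CCT5 (90 and 38, -1.02), subunits of the chaperonin that folds actin and tubulin, were the 2 past 2-fold, seen in at most 5 barcodes. Proteasome genes had -0.01 over 4 genes, with PSMA6 at 149 and 68 counts (-0.92), PSMC5 at 76 and 83 (0.34) and PSMA4 at 74 and 79 (0.30). No endoplasmic reticulum gene reached the minimum, and SPCS2 had the most counts, 58 and 24.

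Among nuclear and structural genes, nucleolar and histone chaperones had -0.59 over 5 genes, all below 0 but 2 above the median of all genes. PTMA had 483 and 360 counts (-0.21), NPM1 397 and 227 (-0.59) and NAP1L1 141 and 117 (-0.06), and NOP56 and ANP32E (108 and 43, -1.11) were past 2-fold. High mobility group genes had 0.15 over 4 genes, all above 0 but each with an interval that reached below 0. HMGB1 was at 188 and 169 counts (0.06, -0.25 to 0.36) and HMGN2 at 105 and 108 (0.25, -0.15 to 0.65). Splicing regulators had 0.44 over 4 genes, from HNRNPC (180 and 88, -0.82) to HNRNPA1 (76 and 123, 0.90) and HNRNPU. Cell cycle genes had -0.36 over 7 genes, with H2AZ1 at 323 and 201 counts (-0.47), STMN1 at 252 and 169 (-0.36) and TUBA1B at 165 and 133 (-0.10). Actin genes had -0.04 over 8 genes, in which TMSB4X had 829 and 825 counts (0.20) and ACTB 216 and 110 (-0.76). FTH1, the ferritin heavy chain, had 132 and 156 counts (0.45), B2M 65 and 45 (-0.32), and the T cell gene CD1E 89 and 118 (0.62). Of the CD1E counts only 23 and 51 lay in the 155 barcodes human in both libraries, and 0 in mouse barcodes. The rest lay in barcodes that were mixed or changed call. The T cell list had a median of -0.26 over 3 genes, and no plasma cell gene reached the minimum.

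The isoform makeup of genes was compared in 87 genes with at least 100 counts in each library. The leading transcript was the same in 62 of them (71.3%), and a median of 3.34 points of a gene's counts changed transcript. The largest single difference was in HMGN2, a nucleosome-binding protein at chr1:26472440-26476642, where ENST00000361427 held 68.6% of 105 counts at 25 cycles (58.8 to 77.3%) and 50.0% of 108 at 30 cycles (40.2 to 59.8%), over intervals that overlapped slightly. In NAP1L1, a histone chaperone on chromosome 12, ENST00000552056 held 27.0% of 141 counts (19.8 to 35.1%) and 12.8% of 117 (7.36 to 20.3%), and ENST00000549596 held 6.38% and 17.9%. ENST00000355731 of RPL23A held 5.18% and 15.5%, and ENST00000402580 of XRCC6, the Ku70 protein of end joining, held 19.6% and 9.45%. NAP1L1 was seen in 5 barcodes at 25 cycles and 6 at 30, so such shares rest on few cells.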

How the data were processed

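The matrices deposited by the authors give raw UMI counts, by barcode and Ensembl transcript. For kit LSK114 the methods state base calling with Guppy and alignment by minimap2 against hg38 and mm10 transcriptomes. Drop-seq UMIs were counted with UMI-tools or with the authors' homotrimer script, and which made each file is not given in the sources used here. Nor is the filter behind the smallest values of 1 and 3.

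Cells were the barcodes of largest count sum, as many as labelled, with ties in alphabetical order. Entries below 3 were set to missing, so a low entry is missing and not 0. Species came from the identifier prefix and a purity of 90%. Human transcripts were matched without version to GENCODE 44 (91.8% of 7437), and no mouse annotation was used here. Log2 ratios used CPM within species with a pseudocount of 0.5 counts and a minimum of 100 counts over both libraries. Intervals were exact Clopper-Pearson for shares, Poisson for totals and conditional binomial for ratios, and PCR copies make them too narrow. Gene intervals also took the counts of each transcript in a barcode as independent, which narrows them further. Barcodes were thinned to 200 counts without replacement. No doublet caller was run, so doublets of 1 species stayed in. Scripts were tested on simulated data, with Python 3.11.15, numpy 2.4.6, pandas 2.3.3 and scipy 1.17.1.

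The members, gene lists and alternatives were chosen with earlier results of these data known. Names were given to 3 transcripts the study mentions, to the extremes of the log2 ratio, 5 at each end for human transcripts and for genes (2 and 2 for mouse), the 5 most abundant human and 3 most abundant mouse transcripts, the 3 members of each list with most counts and the 5 largest isoform differences. Not all of these are printed, and 1 result is not reported here. Genes past 2-fold within a list, barcodes and large entries were named after their values were seen. Alternatives changed the values kept, the barcodes taken, purity, thinning, the minimum and the scaling. The labels give 25 and 30 cycles. The study's text names these numbers for aliquots of a split Drop-seq product, and a lower pair of numbers for the libraries it compares by transcript. Which of these the matrices are is not given in the sources used here.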

Additional observations from a re-analysis of the deposited data

Results flagged for a closer look

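Values of 1 and 2 in the 25-cycle library were left out of the main comparisons of transcripts and genes and kept in an alternative only. They held 14233 barcode and transcript combinations that were stored at 3 or more at 30 cycles. These were 14.4% of the 99151 members' entries at 1 or 2 (exact Clopper-Pearson interval 14.1 to 14.6%), against 69.9% of the entries at 3 or more. Within the low values, 9.32% of the entries at 1 count and 34.3% of those at 2 counts were stored at 30 cycles.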

How the results depend on the processing

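No alternative turned the ratio of totals or the median barcode ratio to the other side of 1 or made a barcode switch species, and 48 of 87 values stayed within the limits set for them. These limits were uneven. For numbers past 2-fold they judged the total only, so a changed split of higher and lower could stay within them. For the median barcode ratio they were the wide quartiles over barcodes. The ratio of transcripts per barcode was turned by 1 alternative, from 1.15 to 0.611 with values of 1 and 2 kept, a choice made after seeing the data. With values of 1 and 2 kept, the ratio of totals was 0.590, the median barcode ratio 0.581 and the human share at 25 cycles 29.1%. Mixed barcodes were then 13.4% at 25 cycles, entries stored again 30.3% and 92.8%, and 2 of 290 human transcripts lay past 2-fold. The median log2 ratios were 0.07 in human and 0.10 in mouse transcripts against -0.15 and -0.00 as reported. Taking 500 and 250 barcodes as cells gave 229 shared, a ratio of totals of 0.808 and human shares of 25.4% and 26.8%. Mixed barcodes were then 3.06% and 3.93%, entries stored again 73.2% and 64.5%, and 8 of 472 mouse transcripts lay past 2-fold. Mixed barcodes at 30 cycles were 4.19% at a purity of 80%, and 12.6% and 14.1% at 95% at 25 and 30 cycles. A minimum of 50 counts put 48 of 538 human transcripts, 98 of 1195 mouse transcripts and 147 of 610 genes past 2-fold. One of 200 counts put 0 of 111 human transcripts, 1 of 274 mouse transcripts and 10 of 121 genes there. The share past 2-fold thus depended on the minimum. The split of genes was 14 higher and 32 lower as reported, 22 and 17 by the median of ratios, which adds 0.23 to every gene, and 15 and 25 by CPM over both species; that of mouse transcripts was 12 and 3 against 10 and 6 by CPM over both species, 5 and 5 with values of 1 and 2 kept and 7 and 6 without gaagtaatca, and that of human transcripts 1 and 5 against 2 and 4 by the median of ratios. The following were chosen after seeing the data. Without gaagtaatca the ratio of totals was 0.856, human shares 30.8% and 31.1%, and entries stored again 69.4% and 60.6%. Without the shallower barcode of each pair 1 mismatch apart (404 left) they were 0.806, 28.9% and 31.0%, and 71.3% and 63.2%. Over barcodes of all 3 Drop-seq libraries human shares were 27.4% and 28.8%. Counting a gene by its largest transcript left 2 of 94 past 2-fold. Apart from the changes made by construction, the cause was not tested. No paired analysis was possible because each group had 1 library, so no replicate could be left out either. Depth limited single transcripts: the interval of a transcript near 100 counts spanned about 1 log2 unit.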
